A study of Mus musculus with 6 samples.

Results

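The genes described here move iron into the cell, store it, release it and sense it. They are 10 of the 54532 genes in the table of raw read counts, chosen by their symbols: *Tfrc*, *Steap3*, *Slc11a2*, *Slc25a37*, *Fth1*, *Ftl1*, *Ncoa4*, *Slc40a1*, *Aco1* and *Ireb2*. All 10 were found in the table and all 10 passed the filter on low counts. RNA was measured by RNA-seq in single mouse hearts at embryonic day (E) 9.5, in 3 *Smyd1-KO* and 3 WT embryos. *Smyd1* encodes a histone methyltransferase of heart and skeletal muscle. *Smyd1-KO* embryos are homozygous for a conventional null allele that every cell carries, from a line held as heterozygotes and obtained from a repository, and embryos of both sexes were used. The comparison asks how RNA levels differ when *Smyd1* is disrupted, and no treatment was given to either genotype. The whole heart was used, so that cardiomyocytes, endocardium, epicardium and blood in the chambers all contributed RNA.

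Iron in plasma is carried by transferrin, which binds the transferrin receptor and is taken into endosomes. There a reductase of the STEAP family reduces the iron, and the carrier DMT1 (*Slc11a2*) moves it to the cytosol. Mitoferrin brings it into mitochondria for heme and iron-sulfur clusters, ferritin stores the rest, and ferroportin exports it. The balance is set largely after transcription by the iron regulatory proteins IRP1 and IRP2, which bind a hairpin in the RNA, the iron-responsive element, when iron is scarce. Bound in a 5′ untranslated region (UTR) they block translation, and bound in the 3′ UTR of *Tfrc* they protect the RNA from decay. Red cell precursors take up the most iron in the embryo, because they make haemoglobin.

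The hairpin was looked for in the protein-coding transcripts of the GENCODE annotation (release M21, build GRCm38), because such elements are known in the RNAs of 5 of these genes. The search, on the transcript strand, was for a bulged C, 5 bases, the loop CAGTGN and 5 bases that could all pair with the 5 before the loop, G-T pairs included. Such a match was found in 4 of the 10 genes and in 294 of 21901 protein-coding genes, or 1.34%. *Slc11a2* had a site with 4 of 5 pairs in its 3′ UTR, a looser match that 10.7% of the protein-coding genes held. The sites are shown as DNA letters, 5′ to 3′, with the bulged C and the loop of the hairpin in capitals:
*Fth1*, 5′ UTR, chr19:9982732-9982760, forward strand: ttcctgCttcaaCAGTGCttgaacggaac
*Ftl1*, 5′ UTR, chr7:45459779-45459807, reverse strand: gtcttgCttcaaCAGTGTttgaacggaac
*Slc40a1*, 5′ UTR, chr1:45925465-45925493, reverse strand: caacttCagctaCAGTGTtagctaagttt
*Tfrc*, 3′ UTR, site 1, chr16:32631219-32631247, forward strand: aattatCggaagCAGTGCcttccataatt
*Tfrc*, 3′ UTR, site 2, chr16:32631598-32631626, forward strand: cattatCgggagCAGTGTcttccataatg
*Tfrc*, 3′ UTR, site 3, chr16:32631663-32631691, forward strand: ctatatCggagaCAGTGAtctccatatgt
*Tfrc*, 3′ UTR, site 4, chr16:32631710-32631738, forward strand: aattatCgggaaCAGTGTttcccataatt
*Slc11a2*, 3′ UTR, chr15:100395153-100395181, reverse strand: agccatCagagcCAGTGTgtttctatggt

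The 4 *Tfrc* sites lay in 1 transcript of 4890 bases, with the bulged C at bases 3321, 3700, 3765 and 3812. The *Fth1* and *Ftl1* sites had the same 5 bases before the loop. The *Slc11a2* site was in 1 annotated transcript of that gene. The counts are per gene, so *Slc11a2* transcripts with and without the site were not told apart. A match is a description of the letters, and RNA counts do not measure translation.

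The hearts had totals of 48627825 to 64217529 counts. Levels are given as CPM, that is counts relative to the library's total scaled by edgeR's TMM factors and expressed for 1000000 counts, and genotypes were compared over 19372 genes with edgeR's quasi-likelihood test. A gene counted as called when its adjusted *P* (Benjamini-Hochberg) was under 0.05 and its log2 fold change was 0.5 or more in size. *Smyd1* RNA was lower in every *Smyd1-KO* heart than in every WT heart but was present in all of them (log2 fold change -1.01, standard error (SE) 0.300, adjusted *P*=0.0973 by edgeR). Markers of red cell precursors also separated the hearts. Of 14 listed, 13 were matched and tested, 12 of the 13 were lower in every *Smyd1-KO* heart than in every WT heart, against 15.5% of all tested genes. edgeR called 3 of them lower, *Nfe2* and *Gata1* among them, against 1.42% of all tested genes. Without *Smyd1-KO* heart 1 it called 11 (2.23% of all genes). It called 1 without *Smyd1-KO* heart 3 (0.35% of all genes) and 1 without WT heart 3 (0.207%). Without WT heart 2 it called 0 (0.0403% of all genes), with 11 at an unadjusted *P* under 0.05. DESeq2 called 10 lower (3.27% of all genes). The summed level of the 13 markers was 770, 1031 and 986 CPM in WT hearts 1, 2 and 3, and 40.3, 301 and 177 CPM in *Smyd1-KO* hearts 1, 2 and 3. None of the 13 was at 0 in all hearts. The cardiomyocyte markers were present in every heart, with summed levels of 8578 to 17884 CPM in *Smyd1-KO* and 11091 to 19038 CPM in WT hearts. Of these markers 10 of 10 were tested and edgeR called 0, against 4.28% of all tested genes. At an unadjusted *P* under 0.05, 2 passed, against 25.1% of all tested genes.

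In WT hearts the 10 genes spanned a wide range. Per kilobase of exon, the ferritin light chain gene *Ftl1* was highest at 395 ± 35.9 CPM per kb (SD, n=3 hearts), and the heavy chain gene *Fth1* followed at 77.8 ± 10.9. *Tfrc* had 30.6 ± 3.08, *Aco1* 22.8 ± 1.51, *Ireb2* 18.0 ± 1.90 and *Slc25a37* 13.6 ± 3.34 CPM per kb. *Slc11a2* had 7.27 ± 0.600 and *Ncoa4* 5.58 ± 0.276 CPM per kb. *Steap3*, at 0.974 ± 0.1003, and *Slc40a1*, at 0.695 ± 0.106 CPM per kb, were lowest. The 3 WT hearts of each gene lay above the 3 WT hearts of the next gene in this order at every step. In *Smyd1-KO* hearts the order was the same down to *Ncoa4*, except that *Slc11a2* (4.81 ± 0.356) and *Ncoa4* (4.77 ± 0.545 CPM per kb) overlapped. *Slc40a1* (1.04 ± 0.488) then stood above *Steap3* (0.506 ± 0.118 CPM per kb), without overlap.

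**Figure D1:**
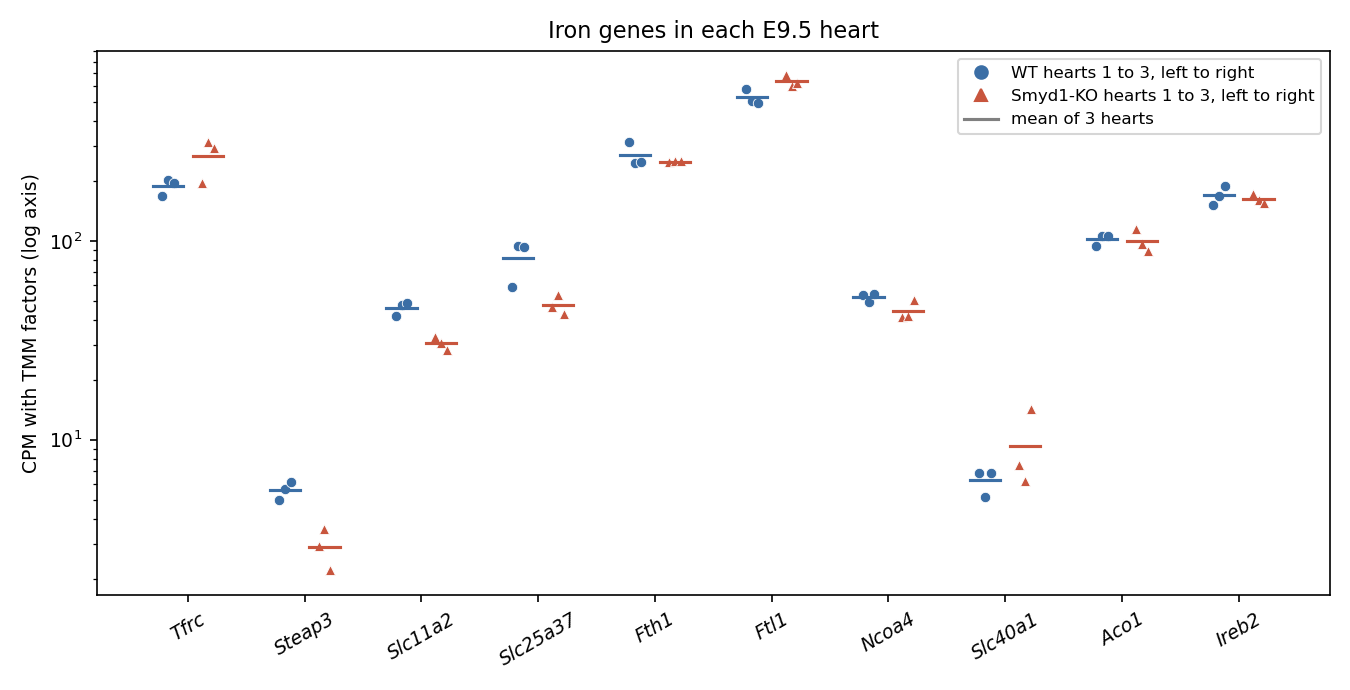
Level of each of the 10 iron genes in each heart, in CPM with TMM factors on a log axis. Circles are the 3 WT hearts, triangles the 3 *Smyd1-KO* hearts, and bars the mean of 3. *Steap3*, *Slc11a2* and *Slc25a37* show no overlap between genotypes with *Smyd1-KO* below, *Ftl1* no overlap with *Smyd1-KO* above, and the other 6 overlap.

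Of the 10 genes, edgeR called 1, *Slc11a2*, which fell in *Smyd1-KO* hearts. Over all tested genes 4.28% were called in either direction and 1.42% were called lower. With all 6 hearts, none of the 10 was called higher by edgeR or by DESeq2. Over all tested genes edgeR called 2.86% higher, and DESeq2 called 1126 of 18962 higher. At an unadjusted *P* under 0.05, 5 of the 10 passed, against 25.1% of all tested genes, with *Tfrc* and *Ftl1* higher and *Slc11a2*, *Steap3* and *Slc25a37* lower. The genotypes did not overlap in 4 of the 10 genes, against 31.3% of all tested genes. Of the 10, 3 were lower and 1 higher in every *Smyd1-KO* heart, against 15.5% and 15.9% of all tested genes. The median log2 fold change of the 10 genes was -0.09, beside -0.0026 over all tested genes. The sign was positive in 3 of the 10 and negative in 7. The values are given along the route of the iron.

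*Tfrc* (ENSMUSG00000022797, chromosome 16, 32608920 to 32632794) encodes transferrin receptor 1, the main entry of transferrin iron. The WT hearts 1, 2 and 3 had 167, 203 and 196 CPM, and the *Smyd1-KO* hearts 1, 2 and 3 had 195, 315 and 293 CPM. *Smyd1-KO* heart 1 lay inside the WT range, and *Smyd1-KO* hearts 2 and 3 lay above it. The log2 fold change was 0.50 (SE 0.182, adjusted *P*=0.145 by edgeR), so that *Tfrc* was not called. Without *Smyd1-KO* heart 1 the log2 fold change was 0.69 and *Tfrc* was called higher (adjusted *P*=0.0168 by edgeR). Over the 6 fits that left out 1 heart it ran from 0.37 to 0.69. *Smyd1-KO* heart 1 was also the heart with the lowest summed levels of the red cell and the cardiomyocyte markers. Their part in the value of *Tfrc* was not tested.

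*Steap3* (ENSMUSG00000026389, chromosome 1, 120190757 to 120272705) encodes the endosomal ferrireductase of red cell precursors. It was low, with 296, 357 and 407 counts in WT and 142, 210 and 126 counts in *Smyd1-KO* hearts. These gave 4.97, 5.62 and 6.11 CPM in the WT hearts, against 2.92, 3.55 and 2.21 CPM in *Smyd1-KO* hearts. All 3 *Smyd1-KO* hearts lay below all 3 WT hearts. The log2 fold change of -0.94 (SE 0.219) was the largest in size of the 10 and missed the threshold (adjusted *P*=0.0542 by edgeR). It was called by DESeq2 (adjusted *P*=0.000923) and by edgeR with at least 10 counts required in every heart (adjusted *P*=0.0492). None of the 6 edgeR fits that each left out 1 heart called it, at an adjusted *P* of 0.0658 to 0.183.

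*Slc11a2* (ENSMUSG00000023030, chromosome 15, 100387898 to 100425072) encodes the divalent metal carrier DMT1, which moves iron out of the endosome, and holds the looser match shown above. It had 41.8, 47.9 and 48.9 CPM in WT hearts 1, 2 and 3, and 32.8, 30.5 and 28.3 CPM in *Smyd1-KO* hearts 1, 2 and 3. The genotypes did not overlap, and the gap between the lowest WT and the highest *Smyd1-KO* heart exceeded the SD within either genotype (3.81 and 2.26 CPM). The level fell by 33.8%, a log2 fold change of -0.60 (SE 0.0993, adjusted *P*=0.0214 by edgeR). With single hearts left out the call held in 2 of 6 fits, those without WT heart 1 and without *Smyd1-KO* heart 1. It was lost without WT heart 2 (adjusted *P*=0.116), WT heart 3 (0.0946), *Smyd1-KO* heart 2 (0.0826) or *Smyd1-KO* heart 3 (0.0650), at log2 fold changes between -0.59 and -0.54. In these 4 fits edgeR called 0.489% to 1.72% of all tested genes, against 4.28% with all hearts.

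*Slc25a37* (ENSMUSG00000034248, chromosome 14, 69241848 to 69285112) encodes mitoferrin-1, which carries iron into the mitochondria of red cell precursors for heme synthesis. Its level was 58.8, 94.1 and 93.2 CPM in WT hearts and 46.7, 53.8 and 42.9 CPM in *Smyd1-KO* hearts. WT heart 1 stood between the other WT hearts and the *Smyd1-KO* hearts, and the genotypes did not overlap. At a log2 fold change of -0.78 (SE 0.188, adjusted *P*=0.0590 by edgeR) it was not called. Without WT heart 1 it was -0.96 and the gene was called lower (adjusted *P*=0.0263 by edgeR). This was the only 1 of the 6 fits leaving out a heart that called it. The others gave an adjusted *P* of 0.0782 to 0.206 by edgeR. DESeq2 (adjusted *P*=0.00246) and edgeR with no filter on low counts (adjusted *P*=0.0271) also called it.

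*Steap3*, *Slc11a2* and *Slc25a37* were the 3 genes of the 10 in which every *Smyd1-KO* heart lay below every WT heart, the same side as the red cell markers. Of all tested genes, 15.5% also lay on that side in every heart. In bulk RNA, fewer cells of a type and less RNA per cell cannot be told apart. Within the *Smyd1-KO* hearts the order of the summed red cell markers was heart 1 (40.3 CPM), heart 3 (177 CPM) and heart 2 (301 CPM). *Slc11a2* had its highest *Smyd1-KO* level in heart 1, the heart with the least red cell RNA. *Steap3* and *Slc25a37* were lowest in heart 3 and highest in heart 2, and the part of red cell RNA in the values of the 3 genes was not tested. Relative to the WT mean, the median of the 13 red cell markers was -4.79, -1.71 and -2.71 on the log2 scale in *Smyd1-KO* hearts 1, 2 and 3. The deviations of *Slc11a2* were -0.49, -0.59 and -0.70 in the same hearts, those of *Slc25a37* were -0.78, -0.58 and -0.90, and those of *Steap3* were -0.92, -0.64 and -1.32.

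**Figure D2:**
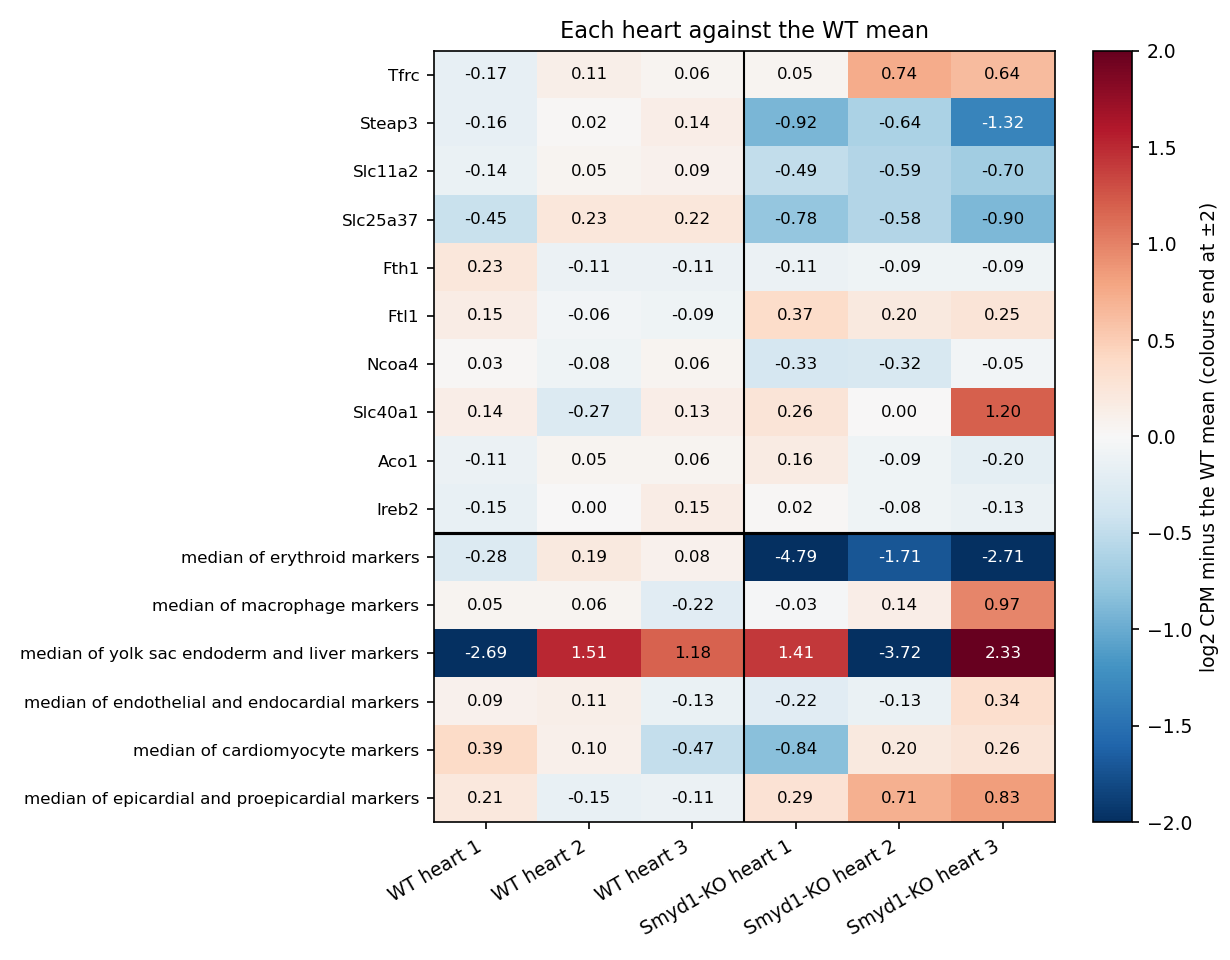
Difference of each heart from the WT mean in log2 CPM, for the 10 iron genes (above the line) and for the median of 6 lists of cell type markers (below it). Colours end at ±2 and the numbers give the values. Every *Smyd1-KO* heart lies below the WT mean for *Steap3*, *Slc11a2*, *Slc25a37*, *Fth1*, *Ncoa4* and the median of the red cell markers. For *Fth1*, WT hearts 2 and 3 (-0.115 and -0.110) also lie below it, and the genotypes overlap for *Fth1* and *Ncoa4*.

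The likeness of other genes to *Slc11a2* was measured as the root mean square difference, over the 6 hearts, of log2 CPM minus the WT mean. Over 10450 genes whose log2 CPM averaged 3 or more, the 3 nearest were *Meaf6* (0.0251), *Fbxl18* (0.0323) and *Rbm28* (0.0513), where the median gene stood at 0.457. All 3 were called lower by edgeR, at log2 fold changes of -0.57, -0.58 and -0.60. The 3 were chosen for nearness to *Slc11a2* in these same hearts, so their calls and fold changes are no separate result. The 6 values share the genotypes, so nearness reflects the shared shift between genotypes as well as the scatter of single hearts.

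*Ftl1* and *Fth1* encode the light and heavy chains of ferritin, the hollow shell that holds iron in the cytosol. The heavy chain carries the ferroxidase activity and the light chain the nucleation of the iron core. *Ftl1* (ENSMUSG00000050708, chromosome 7, 45457944 to 45459884) had 584, 505 and 497 CPM in WT hearts and 681, 604 and 626 CPM in *Smyd1-KO* hearts. All 3 *Smyd1-KO* hearts lay above the WT hearts, the lowest of them by less than the SD of either genotype (48.1 and 39.6 CPM). The log2 fold change of 0.27 (SE 0.102, adjusted *P*=0.159 by edgeR) did not pass.

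*Fth1* (ENSMUSG00000024661, chromosome 19, 9980598 to 9985098) had 313, 248 and 248 CPM in WT hearts and 249, 253 and 252 CPM in *Smyd1-KO* hearts. The genotypes overlapped, and WT heart 1 was higher than the other 5. On the log2 scale the change was -0.10 (SE 0.111, adjusted *P*=0.605 by edgeR), and 0.03 without WT heart 1. Processed pseudogenes of both ferritin genes are listed in the table and can share reads with them. *Ftl1-ps1* had 577 to 1004 counts, 1.74% to 2.81% of the *Ftl1* count, and each of the other 4 pseudogenes had at most 0.193% of its parent's count.

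The ratio of *Fth1* to *Ftl1* counts does not depend on library scaling. It was 0.5366, 0.4898 and 0.49996 in WT hearts and 0.3653, 0.4183 and 0.4032 in *Smyd1-KO* hearts. Every *Smyd1-KO* heart had a lower ratio than every WT heart, at a mean log2 ratio of -1.34 ± 0.101 against -0.98 ± 0.0690 (SD, n=3). The difference of -0.36 was larger than the spread within either genotype (*P*=0.1 by a two-sided exact permutation test, which cannot give less with 3 hearts a genotype). Leaving out single hearts moved it between -0.41 and -0.31, and it was -0.37 with the pseudogene counts added to the parents.

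*Ncoa4* (ENSMUSG00000056234, chromosome 14, 32159865 to 32179855) encodes the receptor that delivers ferritin to the lysosome, so that its iron is released. It had 53.2, 49.4 and 54.3 CPM in WT hearts and 41.6, 41.8 and 50.6 CPM in *Smyd1-KO* hearts. *Smyd1-KO* hearts 1 and 2 lay below the WT range and heart 3 within it. Its log2 fold change of -0.23 (SE 0.1004, adjusted *P*=0.215 by edgeR) did not pass.

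*Slc40a1* (ENSMUSG00000025993, chromosome 1, 45908068 to 45926523) encodes ferroportin, the exporter of iron from the cell. The gene was low, with 6.83, 5.15 and 6.79 CPM in the WT and 7.42, 6.21 and 14.3 CPM in the *Smyd1-KO* hearts. *Smyd1-KO* heart 3, with 819 counts, stood apart from the other 5 hearts, which had 327 to 452 counts. The log2 fold change was 0.58 (SE 0.322, adjusted *P*=0.314 by edgeR), and 0.12 without *Smyd1-KO* heart 3 (adjusted *P*=0.784). *Smyd1-KO* heart 3 also had the highest summed levels of 4 other marker lists. Its 8 yolk sac endoderm and liver markers summed to 80.0 CPM against 1.85 to 37.8 CPM in the other hearts, with 48.0 CPM from *Afp* alone, while *Ttr* (11.9 CPM) and *Apob* (1.96 CPM) lay within the range of the others. Its 9 macrophage markers summed to 8.93 CPM against 6.43 to 6.90 CPM, with 5.08 CPM from *Mrc1*, while *Cd68* (2.54 CPM) lay below every WT heart. Its 5 epicardial markers summed to 255 CPM against 99.98 to 196 CPM, and its 8 endothelial markers to 930 CPM against 603 to 731 CPM. Of the epicardial markers, *Aldh1a2* (10.2 CPM) and *Tcf21* (32.2 CPM) lay within the range of the other hearts. Of the endothelial markers, *Nfatc1* (27.2 CPM) and *Npr3* (54.1 CPM) lay below every WT heart. No marker of these 4 lists was at 0 in all hearts, and 6 of 8, 3 of 9, 5 of 5 and 8 of 8 could be tested. edgeR called 0 of them, against 4.28% of all tested genes. At an unadjusted *P* under 0.05, 1, 2, 2 and 4 passed, against 25.1% of all tested genes. The part of these cell types in the value of *Slc40a1* was not tested.

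*Aco1* and *Ireb2* encode the regulators. *Aco1* (ENSMUSG00000028405, chromosome 4, 40143081 to 40198338) encodes IRP1, which is an aconitase when it holds an iron-sulfur cluster and binds RNA when it lacks one. It had 94.6, 106 and 107 CPM in WT hearts and 115, 96.1 and 89.3 CPM in *Smyd1-KO* hearts, with overlap. Its log2 fold change was -0.03 (SE 0.110, adjusted *P*=0.873 by edgeR), and 0.04 without *Smyd1-KO* heart 3.

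*Ireb2* (ENSMUSG00000032293, chromosome 9, 54863789 to 54912530) encodes IRP2, which is degraded when iron is plentiful. Its level was 153, 169 and 189 CPM in WT hearts and 171, 161 and 155 CPM in *Smyd1-KO* hearts, so that the *Smyd1-KO* hearts lay inside the WT range. The log2 fold change was -0.07 (SE 0.0987, adjusted *P*=0.715 by edgeR), and 0.02 without WT heart 3. The ratio of *Aco1* to *Ireb2* counts was 0.620, 0.627 and 0.565 in WT and 0.669, 0.598 and 0.575 in *Smyd1-KO* hearts, with overlap (difference of mean log2 ratios 0.02, exact permutation test, two-sided, *P*=0.9). Its sign turned without WT heart 3 (-0.03) and without *Smyd1-KO* heart 1 (-0.04).

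The ratio of *Tfrc* to *Fth1* sets RNA of the receptor against RNA of the ferritin heavy chain alone. The light chain gene *Ftl1* had more RNA per kb and a positive log2 fold change (0.27), so the ratio does not stand for storage as a whole. It was 0.534, 0.822 and 0.790 in WT hearts and 0.784, 1.25 and 1.16 in *Smyd1-KO* hearts. *Smyd1-KO* heart 1 fell among the WT hearts, and *Smyd1-KO* hearts 2 and 3 had more *Tfrc* than *Fth1* counts, which no WT heart had. The mean log2 ratio was 0.06 ± 0.361 in *Smyd1-KO* and -0.51 ± 0.343 in WT hearts (SD, n=3). The difference of 0.57 did not pass (exact permutation test, two-sided, *P*=0.3).

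**Figure D3:**
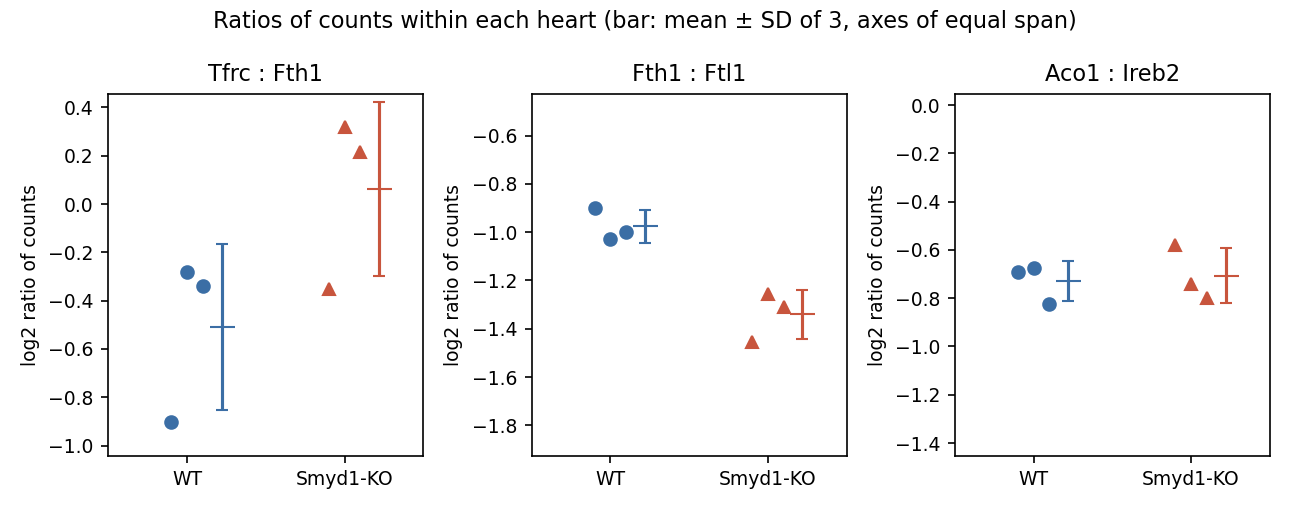
Log2 ratio of the counts of 2 genes within each heart, for *Tfrc* to *Fth1*, *Fth1* to *Ftl1* and *Aco1* to *Ireb2*. Circles are WT and triangles *Smyd1-KO* hearts 1 to 3 from left to right, bars give the mean ± SD of 3, and the axes have equal spans. The *Fth1* to *Ftl1* ratio shows no overlap between genotypes, with *Smyd1-KO* below.

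A list of 36 other genes of iron handling was examined by function. All 36 were in the table and 32 passed the filter. edgeR called 3 lower, *Slc39a8*, *Herc2* and *Flvcr1*, and 1 higher, *Hmox1*, and 28 did not pass. Over all tested genes 1.42% were called lower and 2.86% higher, and these shares also stand beside the counts by function below. The median log2 fold change of the 32 genes was -0.05, beside -0.0026 over all tested genes. Of the 32, 12 did not overlap between genotypes, against 31.3% of all genes. Without WT heart 2 edgeR called 0 (0.489% of all genes), with 8 at an unadjusted *P* under 0.05, and without WT heart 3, *Smyd1-KO* heart 2 or *Smyd1-KO* heart 3 it called 2 (0.863%, 1.24% and 1.72% of all genes).

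Among the genes of uptake, 1 of 10 tested was called. *Slc39a8* encodes the metal carrier ZIP8 and had 44.4, 51.4 and 46.6 CPM in WT and 23.0, 26.6 and 26.8 CPM in *Smyd1-KO* hearts, with no overlap. Its log2 fold change was -0.90 (SE 0.101, adjusted *P*=0.00664 by edgeR), and leaving out hearts singly kept the call in 5 of 6 fits, all but that without WT heart 2 (adjusted *P*=0.0515). *Tfr2*, the second transferrin receptor, was low, at 0.511 to 0.709 CPM in WT and 0.576 to 1.61 CPM in *Smyd1-KO* hearts (adjusted *P*=0.272 by edgeR). *Trf*, which encodes transferrin itself, stayed at or below 0.280 CPM in every heart and was not tested.

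Both tested genes of mitochondrial import lay lower in every *Smyd1-KO* heart, as did 15.5% of all tested genes, and neither was called. *Abcb10* had 55.4, 59.9 and 51.5 CPM in WT and 29.5, 38.1 and 47.4 CPM in *Smyd1-KO* hearts. Its log2 fold change was -0.54 (SE 0.167, adjusted *P*=0.107 by edgeR). *Slc25a28*, which encodes mitoferrin-2, the mitoferrin of cells outside the red cell line, had 19.6, 19.8 and 19.9 CPM in WT and 15.2, 14.8 and 17.3 CPM in *Smyd1-KO* hearts. Its log2 fold change was -0.33 (SE 0.105, adjusted *P*=0.113 by edgeR).

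Of 5 tested genes of heme handling, edgeR called *Hmox1* higher and *Flvcr1* lower, and 3 did not pass. Of these 3, *Flvcr2* lay higher in every *Smyd1-KO* heart, as did 15.9% of all tested genes, and the other 2 overlapped. *Flvcr2* had 7.67, 6.54 and 4.10 CPM in WT and 8.82, 15.3 and 15.3 CPM in *Smyd1-KO* hearts (log2 fold change 1.11, SE 0.299, adjusted *P*=0.0761 by edgeR). *Hmox1*, which encodes the inducible heme oxygenase that frees iron from heme, had 19.4, 17.1 and 15.6 CPM in WT and 35.7, 40.8 and 48.8 CPM in *Smyd1-KO* hearts. Its log2 fold change was 1.27 (SE 0.144, adjusted *P*=0.00668 by edgeR), and the call was lost in 1 of 6 fits, that without WT heart 2 (adjusted *P*=0.0544). Macrophages are known for high *Hmox1*. Of their 3 tested markers, *Mrc1* lay higher in every *Smyd1-KO* heart (3.84 to 5.08 against 2.21 to 2.90 CPM), *Cd68* lay lower in every one (1.81 to 2.54 against 2.58 to 4.13 CPM) and *Csf1r* overlapped. Their part in the value of *Hmox1* was not tested. *Flvcr1* encodes a transporter first described as a heme exporter. It had 13.4, 14.5 and 16.95 CPM in WT and 9.502, 6.73 and 6.57 CPM in *Smyd1-KO* hearts, a log2 fold change of -0.98 (SE 0.187, adjusted *P*=0.0326 by edgeR). It was called in 1 of the 6 fits, that without *Smyd1-KO* heart 1, and the adjusted *P* of the other 5 ran up to 0.134.

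Of the 2 regulators in this list, *Herc2* was called. It encodes a ubiquitin ligase that turns over NCOA4, and had 101, 134 and 120 CPM in WT and 77.0, 76.8 and 80.0 CPM in *Smyd1-KO* hearts. Its log2 fold change was -0.60 (SE 0.109, adjusted *P*=0.0278 by edgeR), and 2 of 6 fits called it, those without WT heart 1 and without *Smyd1-KO* heart 1. *Fbxl5*, the iron sensor that marks IRP2 for degradation, had 47.6 to 54.5 CPM in WT and 47.4 to 66.1 CPM in *Smyd1-KO* hearts (log2 fold change 0.09, adjusted *P*=0.723 by edgeR).

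Of the genes of iron export, of the hepcidin axis and of iron-sulfur cluster assembly, 2, 4 and 5 were tested. None was called by edgeR, against 4.28% of all tested genes. At an unadjusted *P* under 0.05, 0, 1 and 2 of them passed, against 25.1% of all tested genes. *Heph*, a copper ferroxidase that works with ferroportin, had 44.5 to 51.6 CPM in WT and 46.4 to 57.3 CPM in *Smyd1-KO* hearts (adjusted *P*=0.409 by edgeR). *Cp*, which encodes ceruloplasmin, had 6.79 CPM in *Smyd1-KO* heart 1 and between 0.140 and 0.646 CPM in the other 5 hearts. *Hamp*, which encodes the hormone hepcidin, was at 0.0411 CPM or less in every heart.

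**Figure D4:**
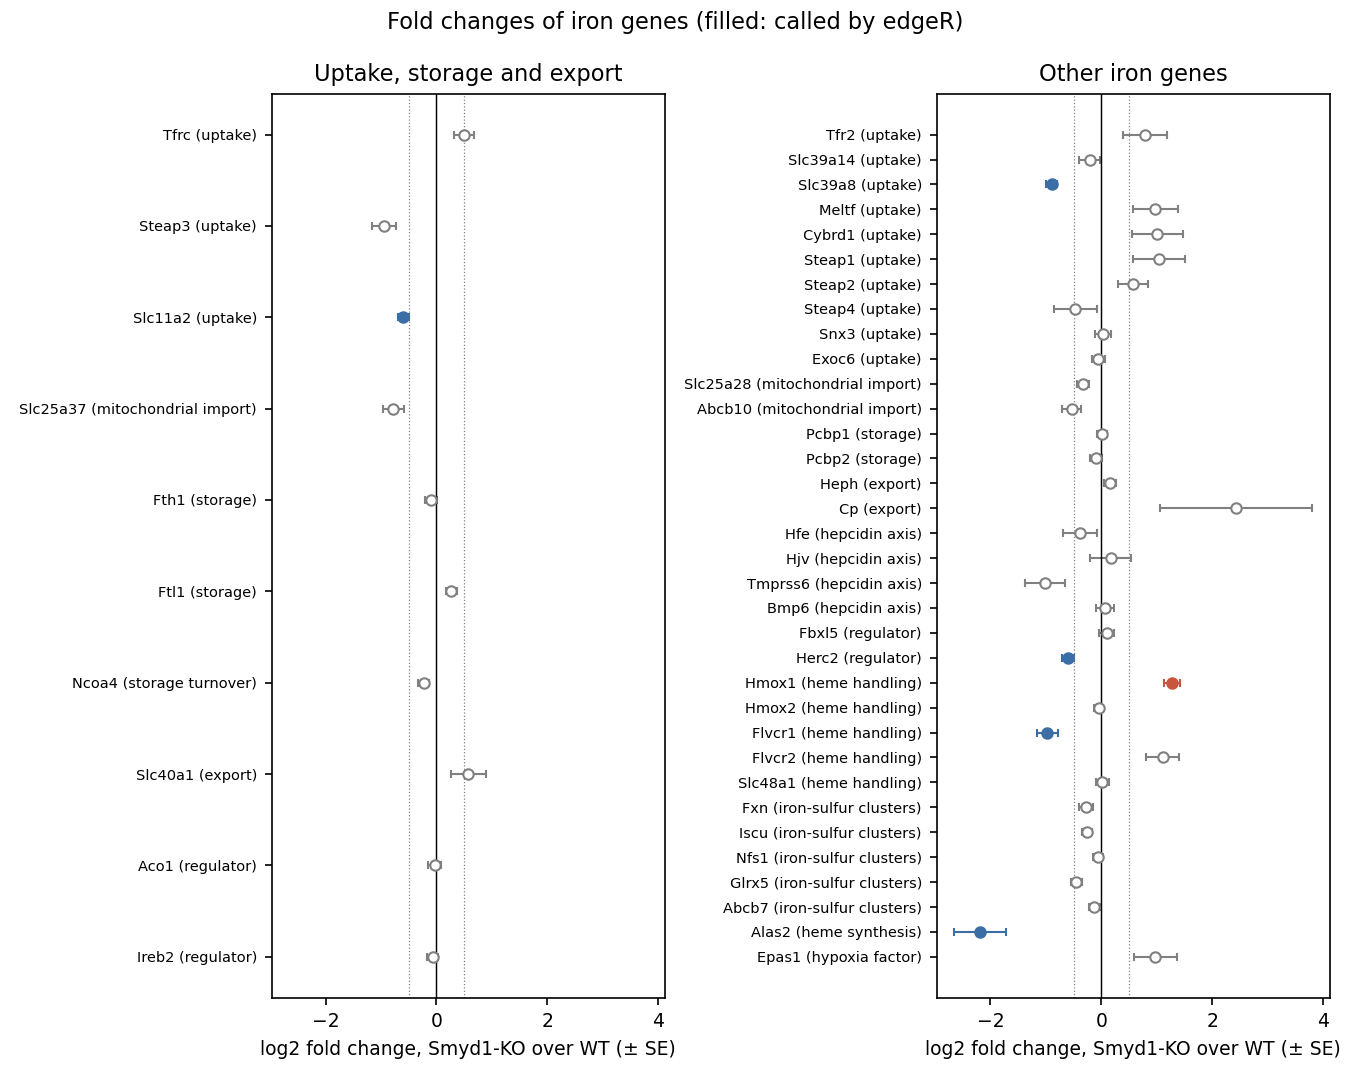
Log2 fold change of *Smyd1-KO* over WT hearts with its SE for the 10 iron genes (left) and for 32 other tested iron genes and for *Alas2* and *Epas1* (right), with the function in brackets. Filled points are called by edgeR, and dotted lines mark ±0.5. *Slc11a2* is the filled point on the left, and *Slc39a8*, *Herc2*, *Hmox1*, *Flvcr1* and *Alas2* are filled on the right.

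Genes outside iron transport whose RNA carries the same kind of hairpin were examined beside the 10. *Alas2*, which encodes the first enzyme of heme synthesis in red cell precursors, held a match with 5 of 5 pairs in its 5′ UTR. It had 8.46, 11.5 and 11.3 CPM in WT and 0.802, 3.25 and 2.79 CPM in *Smyd1-KO* hearts. At a log2 fold change of -2.19 (SE 0.463, adjusted *P*=0.0428 by edgeR) it was called lower. The call held in 1 of 6 fits, that without *Smyd1-KO* heart 1, and the other 5 gave an adjusted *P* of up to 0.157. *Smyd1-KO* heart 1, with the least red cell RNA, also had the least *Alas2*. *Epas1*, which encodes the hypoxia factor HIF-2 alpha, had 20.97, 19.1 and 14.5 CPM in WT and 22.1, 24.4 and 60.9 CPM in *Smyd1-KO* hearts (log2 fold change 0.98, SE 0.388, adjusted *P*=0.174 by edgeR), and no match was found in it. Among the 5 genes of the 10 with a site, *Slc11a2* was called lower. *Tfrc*, *Ftl1* and *Slc40a1* had positive and *Fth1* a negative log2 fold change. With all 6 hearts, none of these 4 was called by edgeR or DESeq2.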

How the data were processed

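Poly A RNA of 3 *Smyd1-KO* and 3 WT E9.5 mouse hearts, 1 library per heart, was sequenced by the authors as paired-end reads, which bcbio-nextgen aligned with STAR to mm10. The counting tool, annotation release and strand setting are not given in the sources used here. The table used holds raw counts per gene, deposited by the authors without normalization. A table of normalized values of the same hearts was not used. Groups and replicate numbers came from the sample titles, and every column was mapped. Each library is a separate embryo's heart.

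The genotypes were tested with edgeR 4.0.16 in R 4.3.3 (filterByExpr, TMM, quasi-likelihood fit and test, Benjamini-Hochberg over 19372 genes). The SE is the log2 fold change divided by the square root of F. A prior count of 2 was used on the log2 scale. DESeq2 1.42.0 was an alternative. Positions, exonic lengths (the union of exons, 54495 genes found) and transcripts came from GENCODE M21 on GRCm38, the build of mm10. Sites of hairpins were searched in its transcripts. Ratios were tested with scipy 1.17.1 in Python 3.11.15.

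The 10 genes and all lists were chosen with earlier results of these data known. Named genes are the 10, the called genes of the other lists, and *Trf*, *Tfr2*, *Slc25a28*, *Fbxl5*, *Hmox1*, *Cp*, *Heph*, *Hamp*, *Alas2* and *Epas1* whether called or not. Some results the rule covers are not reported here. For each called gene of the 10, the 3 nearest genes are named too. *Abcb10* and *Flvcr2* were named after their values were seen. Alternatives were DESeq2, RLE or upper-quartile factors, haemoglobin and mitochondrially encoded genes left out, no filter, at least 10 counts in every heart, no limit on the fold change, the replicate number as a block, adding ferritin pseudogene counts to the parents, and leaving out each heart. Hearts of the same number are different embryos.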

Additional observations from a re-analysis of the deposited data

How the results depend on the processing

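The count of called genes among the 10 was 1, and it was 3 with DESeq2, 2 with no filter on low counts, 2 with at least 10 counts in every heart, and 0 to 2 with each heart left out (3 to 4 at an unadjusted *P* under 0.05). Over all tested genes the share called was 4.28%, and it was 9.21% with DESeq2, 3.09% with no filter, 5.03% with at least 10 counts, and 0.489% to 6.28% with each heart left out. The 3 genes that DESeq2 called were *Slc11a2*, *Slc25a37* and *Steap3*. The 4 called other iron genes became 0 to 5 with each heart left out. The 3 called red cell markers became 10 with DESeq2, 9 with no filter and 0 to 11 with each heart left out. With a replicate block in edgeR, 0 of the 10 genes, 0 of the other iron genes and 0 of the red cell markers were called, with 5, 8 and 12 at an unadjusted *P* under 0.05. The block left 0.305% of all tested genes called, and *Slc11a2* had a log2 fold change of -0.60 and an adjusted *P* of 0.132. The labels give no litter or batch, and the numbers were not taken as a pairing in the main fit. Deviations of same-numbered hearts correlated between -0.216 and -0.0538, and those of different numbers between -0.156 and 0.286. Deviations of 3 hearts from their group mean sum to 0, so these correlations cannot decide whether hearts shared a litter or preparation. RLE and upper-quartile factors, haemoglobin and mitochondrially encoded genes left out, no limit on the fold change and the pseudogene counts left the count among the 10 genes at 1. With each heart left out, the log2 fold change ran from -0.162 to 0.0266 for *Fth1*, positive without WT heart 1, from -0.143 to 0.0425 for *Aco1*, positive without *Smyd1-KO* heart 3, and from -0.132 to 0.0160 for *Ireb2*, positive without WT heart 3. The *Aco1* to *Ireb2* difference ran from -0.0408 to 0.0685, negative without WT heart 3 or *Smyd1-KO* heart 1. The *Tfrc* to *Fth1* difference ran from 0.37 to 0.78. Among the single-gene values of 15 genes under all alternatives, 190 of 225 kept their direction and side of the thresholds, 26 lost a call, 6 gained one and 3 turned sign. Apart from fits with fewer hearts or genes, the cause was not tested. With 3 hearts a genotype, a permutation test cannot fall below *P*=0.1.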

Other observations

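Some iron genes were high in *Smyd1-KO* heart 3 alone, as *Slc40a1* was. They were named after their values were seen. *Cybrd1*, which encodes a ferric reductase of the cell surface, had 9.43 CPM in *Smyd1-KO* heart 3 and 2.36 to 3.08 CPM in the other 5 hearts. *Steap2*, another reductase, had 33.6 CPM there and 14.0 to 17.9 CPM in the others. The adjusted *P* by edgeR over all 3 hearts a genotype was 0.226 for *Cybrd1* and 0.249 for *Steap2*. *Glrx5*, which encodes a glutaredoxin of iron-sulfur cluster assembly, was lower in every *Smyd1-KO* heart, with 173, 155 and 132 CPM in WT and 110, 115 and 113 CPM in *Smyd1-KO* hearts (log2 fold change -0.45, adjusted *P*=0.0567 by edgeR).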
